A study of Homo sapiens with 79 samples.

Results

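Among the cells of human retinal organoids, 165 of 1976 (8.35%, 7.17 to 9.66% by the exact binomial interval) carried reads of connective tissue matrix genes. They were chosen by their reads: a cell was selected when at least 5 reads fell on each of at least 3 of 6 genes, COL3A1, COL1A1, DCN, LUM, MGP and OLFML3. There were 28 such cells at day 60, 77 at day 90, and 7 and 53 on the chips a and b of day 200. The levels of these 6 genes are therefore a description and not a finding. The name mesenchyme-like fitted 97 of the 165 cells, in which the 6 genes together held at least 3000 CPM (counts scaled to a total of 1000000 reads per cell or group of cells). The other 68 cells held far fewer such reads and carried the retinal genes of the unselected cells. They were still above the unselected cells in some matrix genes outside the rule, such as TGFBI. This too is a description, since they were chosen for reads of matrix genes.

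The organoids came from an H9 human embryonic stem cell line with a GFP reporter in the photoreceptor gene CRX, and all groups shared this line. Every culture received Y27632 over the opening days and later foetal calf serum, the thyroid hormone T3, taurine and retinoic acid. Organoids were dissociated at day 60, day 90 and day 200, and single cells were captured on Fluidigm C1 chips of 20 columns, read out by full-length cDNA without molecular identifiers. The table holds 578 cells in 19 columns at day 60, 661 in 20 at day 90, and 356 and 381 in 20 columns each on the day 200 chips. No other line or untreated culture stands beside them, the labels do not say whether the day 200 chips a and b differ in culture or only in capture, and each chip is 1 capture, so that chip and day cannot be told apart at days 60 and 90. The only repeat of a time point is the pair of day 200 chips. Cells and columns are not replicates, and no test was made. All intervals cover counting error only.

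Mesenchyme is loose connective tissue whose cells secrete collagens, proteoglycans and adhesive glycoproteins and assemble them into a matrix around themselves. Around the eye it arises from neural crest and mesoderm and forms the sclera, the corneal stroma and the choroidal stroma, while the neural retina itself comes from neuroectoderm. Fibrillar collagens make tension-bearing fibres, small leucine-rich proteoglycans such as decorin and lumican set fibre spacing, and microfibril proteins carry elastic tissue and bind growth factors.

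The rule used COL3A1 (type III collagen, chromosome 2, 188974373 to 189012746), COL1A1 (a chain of type I collagen, chromosome 17, 50184101 to 50201632) and MGP (matrix Gla protein, an inhibitor of calcification, chromosome 12, 14880864 to 14885857). It also used the proteoglycans DCN (decorin, chromosome 12, 91140484 to 91183217) and LUM (lumican, chromosome 12, 91102629 to 91111494), and the secreted glycoprotein OLFML3 (chromosome 1, 113979391 to 114035572). Positions are those of GENCODE 44 on GRCh38. COL3A1 had 5 reads or more in 165 of the 165 cells, COL1A1 in 159, MGP in 152, DCN in 121, OLFML3 in 63 and LUM in 62. Of all selected cells, 44 carried all 6 genes, and 39 carried only COL3A1, COL1A1 and MGP. Just inside the threshold, the 55 cells with 3 genes had a median summed level of 671 CPM and middle quartiles from 262 to 1315 CPM. Just outside it, the 84 cells with 2 genes had a median of 245 CPM and middle quartiles from 149 to 455 CPM.

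The summed level of the 6 genes fell into a low and a high range. The 97 high-level cells ran from 3513 to 136884 CPM with a median of 38848 CPM. The 68 low-level cells ran from 95.3 to 2294 CPM with a median of 619 CPM, and no selected cell lay between 2294 and 3513 CPM. The wider range from 1000 to 10000 CPM held 24 selected cells, and the boundary of 3000 CPM was set after the levels were seen. Of the 1811 unselected cells, 822 had no read of the 6 genes and 7 reached 3000 CPM with fewer than 3 of the genes, up to 17061 CPM.

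**Figure D1:**
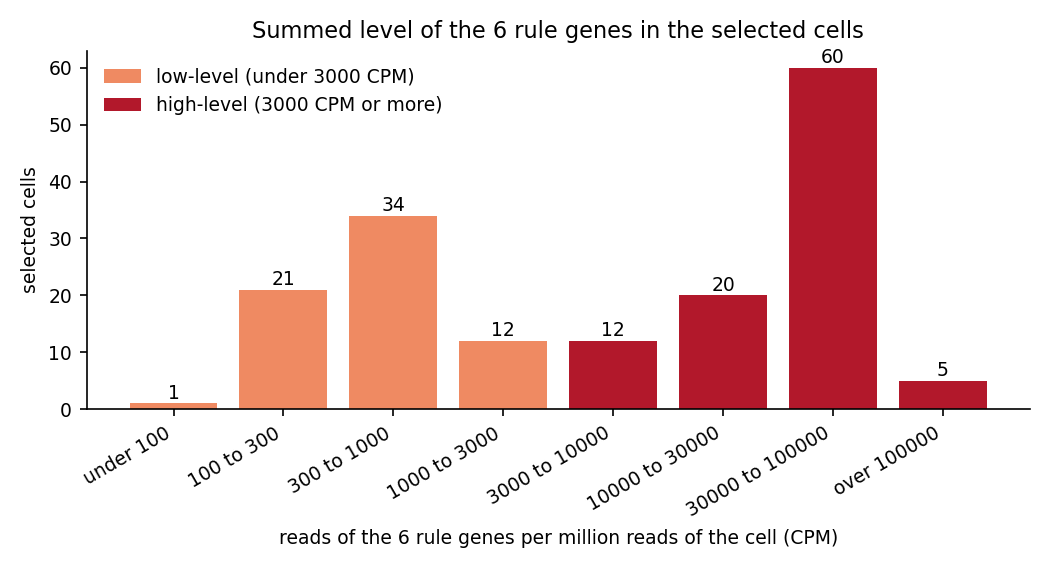
Number of selected cells (vertical axis) by the summed level of the 6 rule genes in CPM (horizontal axis, ranges of unequal width). The 68 low-level cells lie under 3000 CPM, the 97 high-level cells lie above it, and 60 cells fall between 30000 and 100000 CPM.

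High-level cells formed a group by genes that the rule did not use on all chips but chip a of day 200. With the 6 genes left out, the 10 nearest neighbours of each cell on its own chip were found in 15 principal components of 1000 variable genes. Of the neighbours of high-level cells, 77% were themselves high-level, where high-level cells made up 4.91% of all cells. Chip by chip, in the order of day 60, day 90 and the day 200 chips a and b that is kept for all lists of 4 CPM values, this was 69.5%, 85.4%, 10.0% and 83.7%. On chip a only 6 high-level cells existed, so that a cell could have at most 5 of 10 such neighbours. The 6 of 60 neighbours found there lay well under this limit, though above the 1.69% that high-level cells made up of the chip. With every collagen and small leucine-rich proteoglycan gene left out as well, the share over all chips was 74.2%. Of the neighbours of low-level cells, 1.32% (9 of 680) were high-level.

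Low-level cells carried the genes of the retina. At least 3 retinal progenitor markers with 5 reads or more stood in 49 of 68 low-level cells (72.1%), in 1228 of 1811 unselected cells (67.8%) and in 18 of 97 high-level cells (18.6%). Müller glia markers gave 67.6%, 60.6% and 30.9% in the same order, photoreceptor markers 23.5%, 24.5% and 10.3%, and pigment cell markers 20.6%, 8.06% and 6.19%. PAX6, a transcription factor of the eye field, stood at 468, 508, 195 and 495 CPM in low-level cells. The unselected cells had 479, 400, 439 and 436 CPM on the same chips and the high-level cells 141, 108, 2.37 and 59.8 CPM. PAX6 was thus below the unselected cells in high-level cells on 4 of 4 chips, while low-level cells were near the unselected level on all chips but chip a, where there is 1 low-level cell.

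Mesenchymal regulators split the other way. Of the 97 high-level cells, 47 carried at least 3 of the listed mesenchymal transcription factors, against 2 of 68 low-level cells and 35 of 1811 unselected cells. For neural crest and periocular factors the counts were 46 of 97, 7 of 68 and 35 of 1811. On chip a neither list reached 3 genes in any of the 6 high-level cells. Chip a also gave fewer genes per cell at equal depth. With each cell thinned to 50000 reads, high-level cells had a median of 3324, 2731, 1569.5 and 2791 genes in the chip order above. Unselected cells had 3100.5, 2885.5, 1666 and 2758.5 genes. How far this lowers the counts of chip a was not tested. Small leucine-rich proteoglycans, a list that holds DCN and LUM of the rule, reached 3 genes in 72 high-level, 2 low-level and 1 unselected cell. Stress genes were found in more high-level cells as well: 3 or more of them stood in 51.5% of high-level, 26.5% of low-level and 21.4% of unselected cells. Their summed level differed less, at 845, 1930, 1134 and 1700 CPM in high-level against 716, 1024, 1026 and 1028 CPM in unselected cells. None of the 6 ranked stress genes passed the 4-fold rule given below. Their part in the gene lists below was not tested. Median depth was 199960 reads in high-level, 167671 in low-level and 188510 in unselected cells. Each selected cell held between 20734 and 473152 reads.

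Most low-level cells shared a chip column with a high-level cell. Cells of a column are given their 40 row barcodes on the chip and are then pooled into 1 library, and all 40 barcodes recur across the columns, each in 35 to 59 of the 79. Of the 68 low-level cells, 66 lay in the 51 columns that held at least 1 high-level cell. Those columns held 1352 of the 1976 cells, and within chips the low-level share in columns without and with a high-level cell was 0.389% and 2.65% at day 60, 1.59% and 6.95% at day 90, 0% and 0.943% on chip a, and 0% and 6.29% on chip b. Over all chips, the low-level share among cells that were not high-level was 0.321% (2 of 624) in columns without a high-level cell, 3.52% with 1, 5.04% with 2 and 8.97% (27 of 301) with 3 or more. Among unselected cells, a read of any of the 6 genes was found in 29.7%, 56.9%, 69.9% and 87.2% in the same order.

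The same held for a matrix gene outside the rule. TGFBI, an adhesive glycoprotein that abounds in the cornea, had a read in 4.34% of unselected cells in columns without a high-level cell (2.88 to 6.25%), in 10.1% with 1, in 16.8% with 2 and in 21.2% with 3 or more (16.5 to 26.5%). Within chips, unselected cells with a TGFBI read made up 6.64% in columns without and 12.6% in columns with a high-level cell at day 60, 4.84% and 11.7% at day 90, 2.05% and 19.0% on chip a, and 3.33% and 20.5% on chip b. The summed level of TGFBI in these unselected cells went only from 5.24 to 7.57 CPM over the same steps, while more cells held a read. In the order of 0, 1, 2 and 3 or more high-level cells, BGN, a proteoglycan, had a read in 0.482%, 1.91%, 4.72% and 5.11% of unselected cells, while the transglutaminase TGM2 showed no steady order at 5.95%, 9.55%, 10.9% and 9.12%. Of the retinal genes, the homeobox regulator RAX had a read in 57.6%, 64.2%, 63.4% and 62%, and PAX6 in 77.7%, 82.6%, 83.5% and 85.8%. A read of TGFBI stood in 9.71% of photoreceptor-like cells, 12.7% of Müller glia-like cells and 22.5% of GPC3 glia-like cells. Median depths were 211352, 201241 and 213870 reads. In high-level cells the share was 97.9%, and in low-level cells it was 82.4% (56 of 68), at 62.9 CPM in sum. The transcription factor FOXC1 had a read in 36.8% of low-level and 5.41% of unselected cells. Low-level cells were thus above the unselected cells in both genes, which the rule did not use. They were chosen for reads of other matrix genes, so this is a description and not a finding. The FOXC1 share of unselected cells is over all columns, with or without a high-level cell.

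The balance of MGP and COL3A1 reads in low-level cells was set beside that of the high-level cells of their column, and only between columns since the transcripts differ in length. Where the high-level cells of the column held more MGP than COL3A1 reads in sum, 18 of 34 low-level cells did so too, 7 of 8 at day 60, 4 of 9 at day 90 and 7 of 17 on chip b. Where they held more COL3A1 reads, 3 of 32 low-level cells held more MGP. Only day 90 had both kinds of column in number, with 4 of 9 against 3 of 30, and over all chips column and chip cannot be told apart. The row barcode of a low-level cell differed from that of the nearest high-level cell of its column at 3 bases in 37.9% of 66 cells and at 4 bases in 31.8%, against 37.8% and 19.7% of the 1189 unselected cells in those columns. Whether low-level cells took up reads of other cells of their column was not tested. The values below are given for the 97 high-level cells, beside the values over all 165 selected cells where counts of genes are given.

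**Figure D2:**
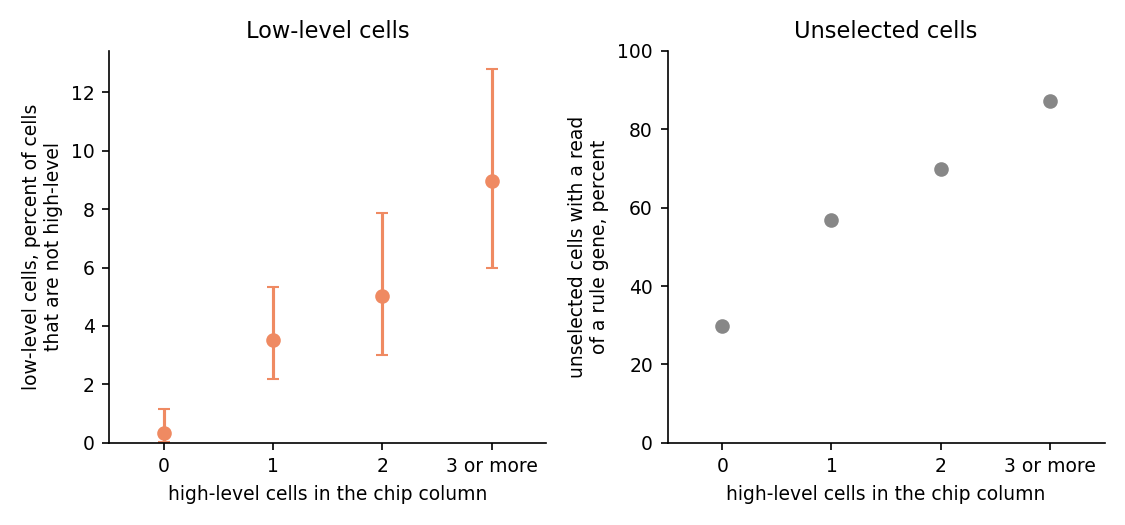
Left, low-level cells as percent of the cells of a column that are not high-level, with 95% exact binomial intervals. Right, percent of unselected cells with at least 1 read of a rule gene. Both are plotted by the number of high-level cells in the chip column over all 4 chips, and both are higher with each step, from 0.321% to 8.97% and from 29.7% to 87.2%.

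Day 60 had 4.84% selected cells (3.24 to 6.93%) and day 90 had 11.6% (9.30 to 14.3%). Chip a of day 200 had 1.97% (0.794 to 4.01%) and chip b had 13.9% (10.6 to 17.8%). High-level cells made up 3.29% (19 cells), 5.60% (37 cells), 1.69% (6 cells) and 9.19% (35 cells). The chips a and b, which share a day, lay at the lowest and the highest of these shares. No order of the days can be read from shares that differ this much within day 200. With each cell thinned to 50000 reads, which left out 6 shallow cells of day 90, the selected shares were 3.81%, 7.63%, 1.69% and 10.8%.

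**Figure D3:**
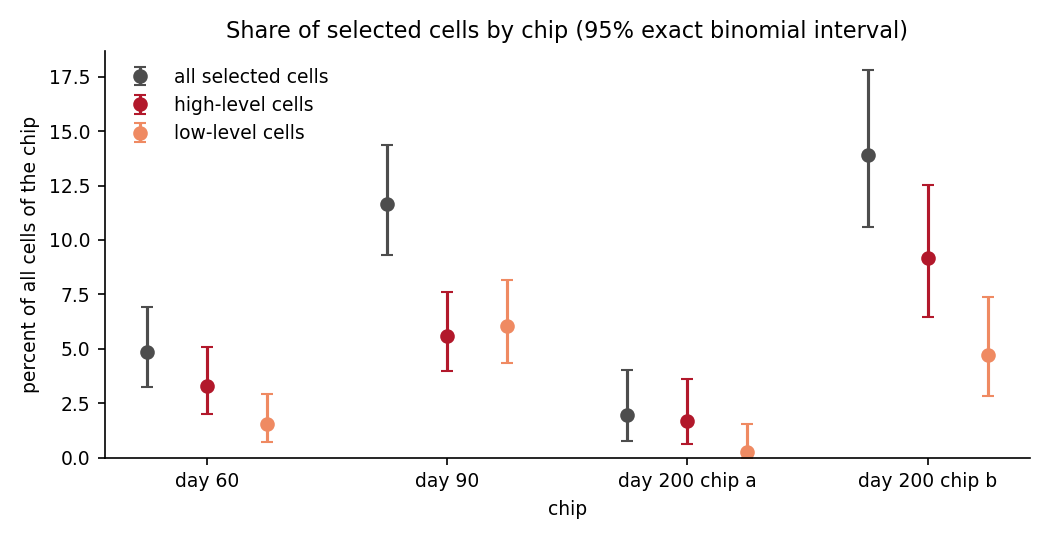
Selected, high-level and low-level cells as percent of all cells of a chip (vertical axis) on each of the 4 chips (horizontal axis), with 95% exact binomial intervals. The 2 chips of day 200 lie furthest apart, at 1.97% and 13.9% for all selected cells.

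For the gene comparison, reads were summed over the high-level cells and over the unselected cells of each chip and given as CPM, in which fewer cells with a gene and fewer reads per cell cannot be told apart. A gene was called higher when CPM + 5 was at least 4 times higher on each of the 4 chips, and lower likewise. Of 8557 genes ranked, 71 were called higher (0.83%) and 38 lower (0.444%), the 6 rule genes left out. Over all 165 selected cells the counts were 44 of 8466 (0.52%) higher and 0 (0%) lower, and each of those 44 was among the 71. The cells were chosen on reads of the same libraries, so these calls are a description of the cells and carry no test.

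Fibrillar collagens beyond the rule were high in the same cells. COL1A2, the other chain of type I collagen (chromosome 7, 94394895 to 94431227), stood at 3565, 16568, 16796 and 10181 CPM in high-level cells. Unselected cells had 170, 293, 255 and 263 CPM. Of the 10 fibrillar collagen genes listed, 2 belonged to the rule and 6 could be ranked, of which 3 were called higher, COL1A2, COL5A1 and COL5A2. Of the 16 other collagens, 3 were called higher, COL6A3, COL14A1 and COL16A1. COL14A1, a collagen that sits on fibre surfaces, held 184, 706, 774 and 433 CPM against 4.42, 1.95, 0.0316 and 8.44 CPM. COL2A1, the collagen of cartilage and vitreous, went the other way on 4 of 4 chips, at 0.282, 3.57, 0.594 and 16.1 CPM against 79.2, 67.6, 111 and 73 CPM in unselected cells, and did not pass the 4-fold rule on each.

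TGFBI (chromosome 5, 136028988 to 136063818) had the highest of the smallest folds over the chips among the called genes outside the rule. It stood at 2342, 3252, 3836 and 3748 CPM in high-level cells and at 10.3, 3.01, 4.26 and 8.06 CPM in unselected cells. The log2 fold ran from 7.26 to 8.70 over the chips. Of 97 high-level cells, 93 had 5 reads of TGFBI or more, and the cells ran from 0 to 14470 CPM with a median of 2816 CPM. Of the 21 adhesive and matricellular glycoproteins listed, 17 were ranked outside the rule and 7 were called higher. LAMA4, a laminin chain of vascular and mesenchymal basement membranes, held 264, 427, 417 and 424 CPM against 11.1, 7.12, 17.0 and 17.1 CPM. SPARC, a collagen-binding glycoprotein, had reads in 100% of high-level cells and in 72.4% of unselected cells, with a log2 fold of 2.68 to 3.93.

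Small leucine-rich proteoglycans beyond the rule were called for 2 of the 5 ranked. BGN (biglycan, chromosome X, 153494980 to 153509546) stood at 458, 260, 563 and 274 CPM in high-level cells and at 1.11, 1.51, 0.601 and 0.860 CPM in unselected cells. FMOD (fibromodulin, chromosome 1, 203340628 to 203351758) stood at 127, 239, 518 and 413 CPM against 0.0200, 0.108, 2.28 and 0.247 CPM. On chip a, 65.8% of the summed cell levels of BGN and 57.5% of those of FMOD came from 1 cell. Without the 8 mitotic cells of day 60 described below, FMOD was at 0 CPM there and its call on 4 chips was lost.

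Elastic fibre genes and matrix enzymes gave 3 called genes each. Among the 14 ranked elastic fibre and microfibril genes, FBLN1 (fibulin 1) held 2165, 2785, 3743 and 2977 CPM against 183, 156, 163 and 133 CPM. EMILIN1, a glycoprotein at the surface of elastic fibres, and MFAP4, a microfibril-associated protein, were called as well. The matrix remodelling list had MMP2, TIMP1 and CTSK called among 12 ranked. MMP2, a gelatinase, stood at 33.5, 61.8, 223 and 145 CPM against 1.33, 4.15, 8.69 and 18.9 CPM. Of the 15 ranked collagen processing genes, 2 were called: PCOLCE, which enhances procollagen cleavage, and the collagen chaperone SERPINH1. The median log2 fold of this list was 1.37, beside -0.60 over all ranked genes.

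Receptors and ligands of mesenchyme followed. PDGFRA, the platelet-derived growth factor receptor of many fibroblasts (chromosome 4, 54229280 to 54298245), stood at 308, 308, 507 and 315 CPM against 4.65, 13.2, 22.9 and 15.1 CPM. CXCL12, a chemokine of stromal cells, stood at 168, 405, 762 and 511 CPM against 14.3, 11.0, 23.1 and 17.3 CPM. The growth factor list had 5 of 16 ranked genes called, PDGFRA, CXCL12, IGFBP3, IGFBP4 and IGFBP6, the last 3 being insulin-like growth factor binding proteins. In IGFBP3 a few cells carried the level: 31 of 97 high-level cells had 5 reads or more, and 1 cell gave 71.7% of the summed cell levels on chip b.

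Among transcription factors, 1 of 6 ranked mesenchymal genes and 1 of 9 ranked periocular genes were called. FOXC1, a forkhead factor of periocular mesenchyme and the anterior segment (chromosome 6, 1609915 to 1613897), stood at 91.9, 346, 274 and 494 CPM against 3.07, 5.01, 3.47 and 7.48 CPM. It had 5 reads or more in 67 of 97 high-level cells, that is in 10 of 19, 26 of 37, 2 of 6 and 29 of 35 cells of the chips. PRRX1, a homeobox factor of limb and craniofacial mesenchyme (chromosome 1, 170662728 to 170739421), stood at 150, 77.1, 227 and 124 CPM against 12.8, 1.95, 1.48 and 7.78 CPM. OSR2, a regulator of craniofacial development, had no read on chip a, where fewer genes were found per cell, and so could not pass on 4 chips. OSR2 stood at 32.7, 65.5 and 46.8 CPM on the other chips. ZEB1, a repressor of epithelial genes, did not separate the groups, with 357, 158, 253 and 151 CPM against 237, 171, 176 and 166 CPM.

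Further called genes did not come from the lists. PTGIS, the synthase of prostacyclin (chromosome 20, 49503874 to 49568137), stood at 252, 229, 1033 and 244 CPM against 1.46, 2.08, 0.918 and 1.69 CPM. The complement component C7 stood at 269, 137, 627 and 283 CPM against 0.0100, 1.02, 11.1 and 3.19 CPM, carried by 25 of 97 cells with 5 reads or more. Without the 8 mitotic cells described below, C7 was at 0 CPM at day 60, so that its call on 4 chips rested on them. TGM2, a transglutaminase that crosslinks proteins, FHL2, a LIM-domain protein of the cytoskeleton and nucleus, and ISLR, a secreted protein of stromal cells, were called too.

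**Figure D4:**
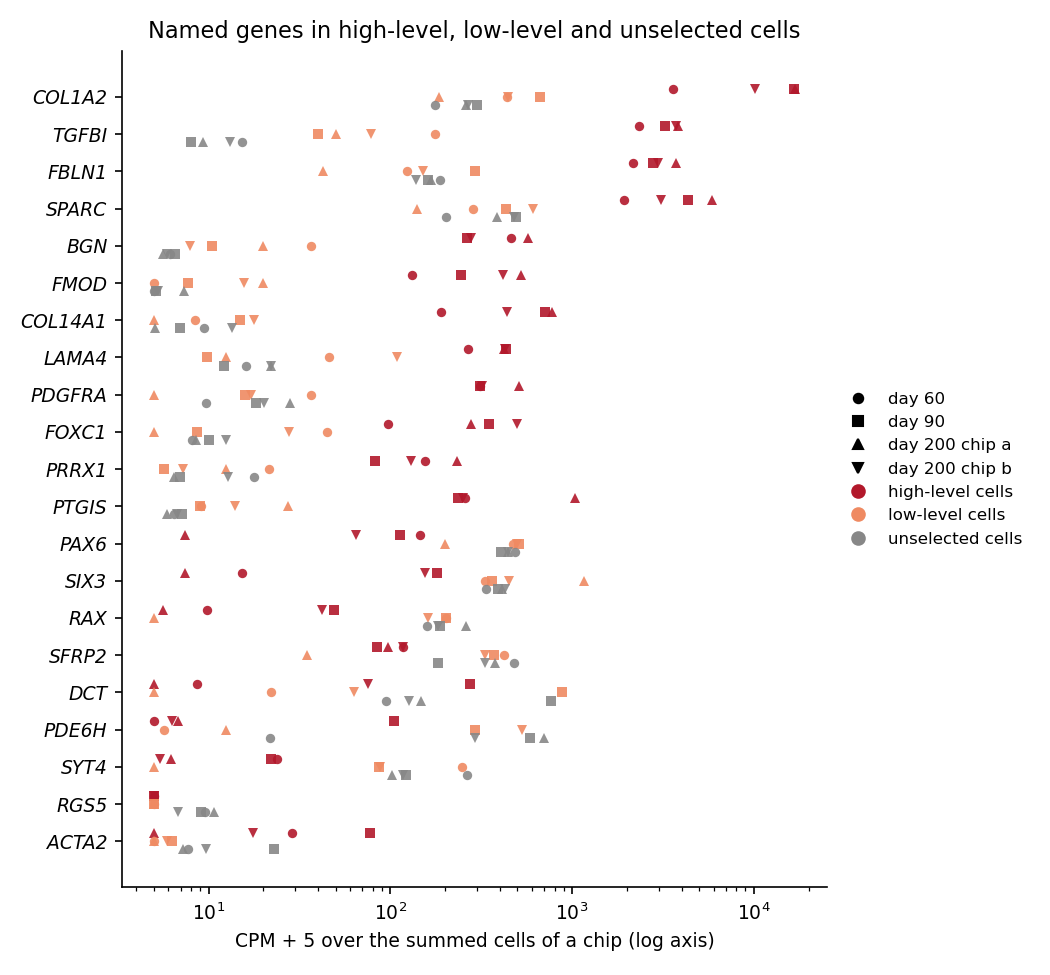
CPM + 5 on a log axis for named genes in the summed high-level, low-level and unselected cells of each of the 4 chips, with 1 symbol per chip. From COL1A2 down to PTGIS the high-level values lie to the right of the unselected values, and from PAX6 to SYT4 they lie to the left. Low-level values lie mostly nearer the unselected than the high-level ones.

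The regions before the starts of 3 called genes are shown because all were called higher on 4 of 4 chips and because the genes span a matrix protein, a proteoglycan and a transcription factor. Promoters were taken from RefSeq on GRCh38.p14, where 50 of the 71 called genes had an entry. The 100 bases before each start are given 5′ to 3′ on the + strand, with matches to the GC box GGGCGG, the CCAAT box CCAAT and the TATA box TATAAA, on either strand, in capitals.
TGFBI, chr5:136028888-136028987: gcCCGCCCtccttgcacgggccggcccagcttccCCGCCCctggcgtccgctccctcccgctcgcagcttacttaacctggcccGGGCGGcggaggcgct
BGN, chrX:153494880-153494979: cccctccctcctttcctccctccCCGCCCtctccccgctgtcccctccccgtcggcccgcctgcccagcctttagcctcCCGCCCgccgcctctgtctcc
FOXC1, chr6:1609815-1609914: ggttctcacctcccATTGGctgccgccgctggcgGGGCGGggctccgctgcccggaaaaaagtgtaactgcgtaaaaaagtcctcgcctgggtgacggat
The window of TGFBI held 3 matches and those of BGN and FOXC1 held 2 each. A GC box stood in 36 of the 73 promoters of called genes (49.3%) and in 31.3% of all 35116 promoters, a CCAAT box in 17.8% and 18.1%, and a TATA box in 6.85% and 4.99%. These are matches of letters in a window, and no factor was measured at them. The 73 promoters belong to 50 genes, so some genes count more than once. All promoters include those of genes not ranked here. Ranked genes that were not called were not compared, so the shares say nothing particular to called genes.

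Retinal genes were low in high-level cells. All 8 retinal progenitor markers and 7 of the 8 Müller glia markers had a mean log2 fold of -1 or lower. Of all 8557 ranked genes, 2945 did so too. RAX stood at 4.79, 43.6, 0.594 and 36.8 CPM in high-level cells against 154, 182, 257 and 177 CPM in unselected cells. DKK3, a secreted protein of Müller glia, stood at 70.5, 176, 5.34 and 272 CPM against 344, 674, 864 and 786 CPM. Of the 38 genes called lower, SYT4, NEFL and NEFM belong to the neuron markers, SLC1A3 to the Müller glia markers and PDE6H to the photoreceptor markers. SYT4, a synaptotagmin, stood at 18.9, 17.0, 1.19 and 0.378 CPM against 260, 117, 96.8 and 112 CPM. TRH, the precursor of thyrotropin-releasing hormone, stood at 1.97, 2.38, 0.594 and 14.7 CPM against 130, 126, 199 and 239 CPM.

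Markers of more specialised cells were present in a minority of high-level cells. At least 3 GPC3 glia-like markers stood in 13 of 97 high-level cells (13.4%), in 2 of 68 low-level cells and in 80 of 1811 unselected cells (4.42%). By chip this was 36.8%, 10.8%, 0% and 5.71% of high-level and 4.91%, 2.57%, 0.573% and 11.0% of unselected cells. At least 3 of the 11 pericyte and smooth muscle markers stood in 8 of 97 high-level cells (8.25%), in 0 of 68 low-level cells and in 7 of 1811 unselected cells (0.387%). ACTA2, smooth muscle actin, stood at 23.7, 71.8, 0 and 12.6 CPM in high-level cells against 2.69, 18.0, 2.25 and 4.64 CPM, while the pericyte marker RGS5 had no read in any selected cell. Of the leptomeningeal markers, ITIH2, which encodes a protein that binds hyaluronan, stood at 1.97, 106, 0 and 126 CPM against 1.56, 0.0884, 0 and 0 CPM, with reads in 24.7% of high-level cells. ALDH1A2, an enzyme of retinoic acid synthesis, stood at 3.10, 82.7, 0 and 6.29 CPM against 2.77, 0.353, 0 and 9.43 CPM. The endothelial marker EMCN stood at 0, 21.7, 0 and 75.5 CPM against 0, 0.245, 0 and 0.0521 CPM. These 3 genes were thus above the unselected cells on day 90, and ITIH2 and EMCN also on chip b. They do not stand for their whole lists. CLDN5, another endothelial marker, went the other way at 0, 0, 0 and 0.378 CPM against 22.3, 4.30, 14.5 and 18.5 CPM. The listed leptomeningeal markers summed to 48.8, 247, 15.4 and 169 CPM against 117, 73.4, 40.3 and 66.5 CPM. The endothelial markers summed to 103, 84.4, 0 and 138 CPM against 34.0, 56.2, 128 and 157 CPM. Of the 6 ranked cartilage markers, 5 had a mean log2 fold of -1 or lower in high-level cells, beside 2945 of all 8557 ranked genes. COL9A3, a chain of type IX collagen, went the other way. It stood at 101, 59.9, 53.4 and 31.2 CPM against 4.51, 9.31, 6.29 and 8.53 CPM, without passing the 4-fold rule on each chip. The cartilage markers MATN1 and MATN3 were at 0 in all selected cells. The keratocyte marker ANGPTL7, the leptomeningeal marker SLC22A6, the immune marker LAPTM5 and the mesenchymal factor TBX18 were also at 0. No high-level cell had 3 markers of endothelium, immune cells, Schwann cells, bone, keratocytes or skeletal muscle, and 1 each had 3 of cartilage, leptomeninges and of epithelium and lens. The table held only 2 bone, 3 immune, 5 keratocyte, 5 skeletal muscle, 5 epithelial and lens, 6 Schwann cell and 6 endothelial markers, which limits these counts.

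Day 60 and day 200 were compared within high-level cells. A gene was called when CPM + 20 differed at least 4 times between the 19 cells of day 60 and those of each day 200 chip, 6 and 35 cells, in the same direction. At day 60, 70 of 3813 genes were higher (1.84%), and at day 200, 32 of 1760 (1.82%). Over all 165 selected cells the counts were 49 of 3992 (1.23%) and 25 of 1979 (1.26%), of which 36 and 18 were also called in high-level cells. In the unselected cells of the same chips, 24 of the 70 and 10 of the 32 differed at least 2 times the same way. At the 4-fold of the calls, 8 of the 70 and 0 of the 32 did so. The share over all genes compared is not given, so these counts cannot be set against it. With 1 chip at day 60, a change with time and a difference between chips cannot be told apart. Cells of chip a also had fewer genes at equal depth, and how far this bears on the calls was not tested.

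PI15, a secreted peptidase inhibitor, had no read in 19 high-level cells of day 60, which allows up to 0.846 CPM in sum. It stood at 667 CPM at day 90 (5 reads or more in 23 of 37 cells), 1433 CPM on chip a (3 of 6) and 2706 CPM on chip b (29 of 35). APOD, the lipid carrier apolipoprotein D (chromosome 3, 195568705 to 195584033), went from no read at day 60 to 473 CPM at day 90 and to 619 and 3853 CPM on chips a and b, with 5 reads or more in 12 of 37, 4 of 6 and 23 of 35 cells. On chip a, 94.8% of the summed cell levels of APOD came from 1 cell. COL15A1, a basement membrane collagen (chromosome 9, 98943179 to 99070792), stood at 0, 144, 143 and 201 CPM, and DPT, dermatopontin, a matrix protein of skin and other connective tissue, at 0, 55.8, 1080 and 123 CPM. In unselected cells PI15, APOD, COL15A1 and DPT were at 0 at day 60 and at no more than 4.08 CPM later.

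Other genes were present at day 60 and higher at day 200. C1R, a complement protease (chromosome 12, 7080214 to 7092540), stood at 73.3, 374, 1016 and 1048 CPM, and in unselected cells at 9.98, 74.4, 45.2 and 67.8 CPM. TGM2 (chromosome 20, 38127385 to 38166578) stood at 260, 594, 1853 and 1875 CPM, SLC26A7, an anion transporter, at 97.3, 693, 996 and 1091 CPM, and ADM, the vasodilator peptide adrenomedullin, at 140, 617, 1771 and 1692 CPM. SFRP4, a secreted Wnt inhibitor (chromosome 7, 37905932 to 38025695), stood at 6.77, 3.72, 293 and 403 CPM, but unselected cells also went from 10.8 CPM to 73.3 and 60.1 CPM. Of the rule genes, which are outside the count, LUM met the same criterion, at 104, 972, 628 and 523 CPM, though not over all selected cells, and at 151 CPM at day 60 without mitotic cells it no longer met it. In all high-level cells COL3A1 stood at 4799, 21579, 17750 and 14336 CPM and COL1A1 at 3607, 5696, 7294 and 4520 CPM.

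Cell division genes were among those higher at day 60. TOP2A, a topoisomerase of dividing cells (chromosome 17, 40388525 to 40417896), stood at 827, 1.79, 0 and 0.629 CPM. At day 60, 8 of 19 high-level cells had 5 reads or more in at least 3 mitotic markers, against 0 of 37, 0 of 6 and 0 of 35 on the later chips. In unselected cells the counts were 125 of 550, 35 of 584, 8 of 349 and 4 of 328, and their TOP2A also went from 466 CPM to 101 and 13.2 CPM. TPX2, a spindle protein, stood at 357, 1.34, 0 and 0 CPM and CENPF, a centromere protein, at 307, 3.57, 0 and 0.252 CPM. Without the 8 mitotic cells, TOP2A at day 60 was 30.4 CPM, a fall set by the removal since TOP2A is among the mitotic markers. Of the 70 genes called, 31 were called again among 79.

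Some day 60 values rested largely on 1 cell. TIMP1, a tissue inhibitor of metalloproteinases (chromosome X, 47582408 to 47586789), stood at 16134 CPM at day 60 and at 700, 858 and 1955 CPM later, but 1 cell with 120517 CPM gave 67% of the summed cell levels. The medians over cells were 1126, 252, 826 and 857 CPM, so that day 60 and day 200 were close by the median. KRT18, a keratin of simple epithelia (chromosome 12, 52948871 to 52952906), stood at 785, 68.1, 41.5 and 38.1 CPM, and 73.8% came from 1 cell. Without the mitotic cells KRT18 was at 137 CPM at day 60 and was not called. SULT1E1, an oestrogen sulfotransferase (chromosome 4, 69841212 to 69860145), stood at 229, 3.43, 0 and 0 CPM, with 5 reads or more in 9 of 19 cells at day 60, in 2 of 37 at day 90 and in none of the day 200 cells. In unselected cells SULT1E1 held at most 0.432 CPM. MT-TP, a mitochondrial transfer RNA, stood at 516, 34.7, 20.2 and 35.6 CPM and moved alike in unselected cells, at 446, 35.7, 45.5 and 77.3 CPM.

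**Figure D5:**
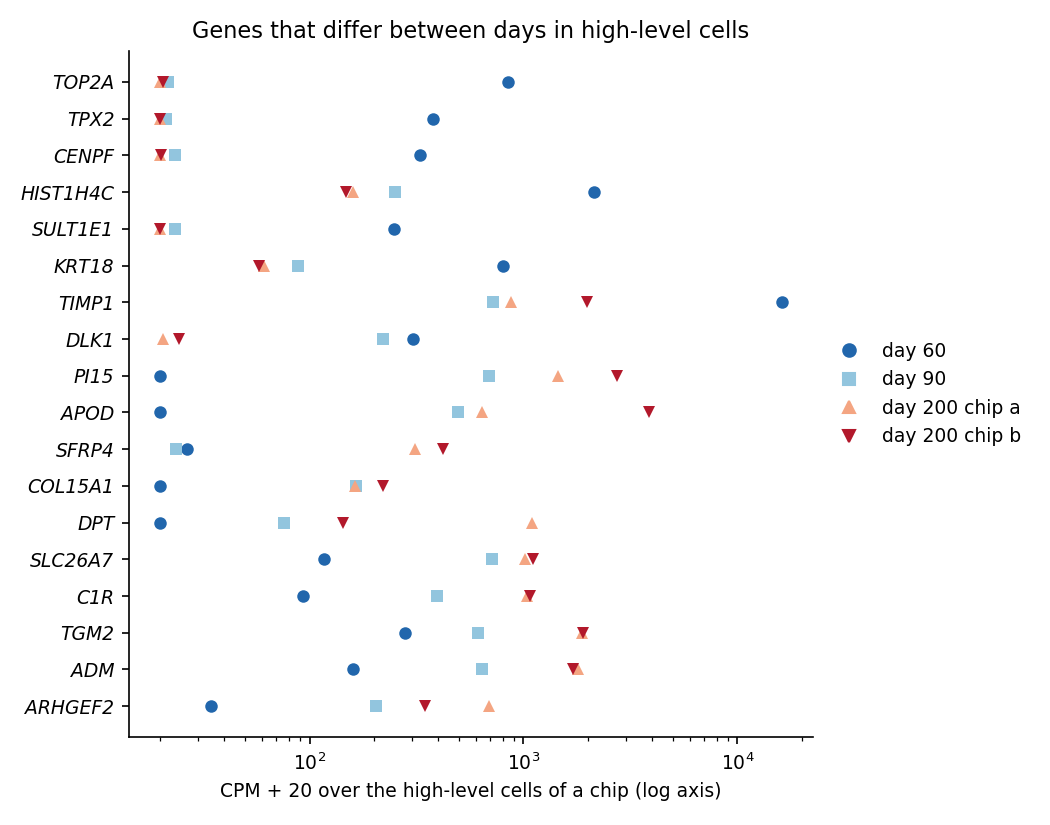
CPM + 20 on a log axis in the summed high-level cells of each chip for genes that differ between day 60 and day 200, with 1 symbol and colour per chip. TOP2A to DLK1 lie highest at day 60, PI15 to ARHGEF2 lie lowest or second lowest at day 60, and the 2 day 200 chips rest on 6 and 35 cells.

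The balance of MGP and COL3A1 reads differed between chips, also between those of day 200. In single high-level cells, the median log2 ratio of MGP to COL3A1 reads was 1.97, -0.98, -0.99 and 0.62. More MGP than COL3A1 reads stood in 15 of 19, 7 of 37, 0 of 6 and 26 of 35 cells. MGP itself summed to 28240, 13337, 6617 and 27984 CPM. OLFML3 was lowest on chip a as well, at 255, 347, 134 and 828 CPM, and 98.5% of its summed cell levels on chip a came from 1 of the 6 cells. Chip a thus lay near day 90 in this ratio, and chip b lay between day 90 and day 60.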

How the data were processed

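The authors trimmed reads with Trimmomatic 0.33, aligned them to GRCh38.p7 with STAR 2.4.0 and counted reads per gene with HTSeq 0.6. They removed cells by reads, genes, mitochondrial share and spike-in share with Scater before the counts were deposited. No strand setting for counting is given in the sources used here, so reads of overlapping genes on opposite strands cannot be told apart. More spike-in RNA was used at day 90 than on the other chips.

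The deposited table holds read counts, without molecular identifiers, of 24414 genes in 1976 cells. Chip columns summed to between 3414268 and 7999822 reads. Cells were grouped by the day and chip in their sample names. The columns of a chip and its cells were not treated as replicates, so no test was made. Reads were summed per chip and scaled to CPM without spike-in rows. Genes were ranked with at least 20 CPM and reads in at least 10% of cells, and called at 4-fold with an offset of 5 CPM on each of 4 chips. Between days the minimum was 50 CPM and 20% of the cells, and the offset was 20 CPM. Intervals are exact 95% binomial or Poisson intervals. Where no read was found, 3 reads set the floor.

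The selected cells and the 28 lists, with 300 genes of which 23 were not in the table, were chosen with earlier results of these data known. Named genes were the 6 of the rule, the 12 called higher and 8 called lower with the largest smallest fold, 8 in each direction between days, of each list the 4 with the highest CPM and those called, and defining markers at 0. The division at 3000 CPM, the values for high-level cells and the values without mitotic cells were chosen after seeing the data. Doublets were called with scrublet chip by chip and kept, 29 in all, of which 1 was a selected cell. Calculations used Python 3.11.15, numpy 2.4.6, pandas 2.3.3, scipy 1.17.1 and scanpy 1.11.5, and edgeR 4.0.16 in R 4.3.3 for TMM scaling only. The calling steps were tested on simulated data. Alternatives changed the reads and genes asked for, each rule gene, the offset, the fold, the scaling, the filters, doublets and chips left out. A result on 1 listed gene is not reported here.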

Additional observations from a re-analysis of the deposited data

Results flagged for a closer look

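The table has a row named GFP-Spike, which no comparison used and whose origin is not given in the sources used here. It had reads on the day 200 chips and none on the chips of day 60 and day 90. In high-level cells it held 16.5 reads per 1000000 on chip b (13.8 to 19.6, exact Poisson interval, in 7 of 35 cells) and 1 read in all on chip a. In low-level cells it held 20.7 on the same scale on chip b (16.7 to 25.4, in 5 of 18 cells), and the single low-level cell of chip a held 189 reads. Unselected photoreceptor-like cells held 389 on chip a and 164 on chip b, and the remaining unselected cells 54.9 and 5.88. The intervals cover counting error only, and the source of these reads was not tested.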

How the results depend on the processing

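The share of selected cells depended on the rule, and the cause of the changes beyond the rule's own construction was not tested. With 1 read asked for it was 9.69% at day 60, 24.8% at day 90, and 6.74% and 29.7% on chips a and b, and with 10 reads 8.32% at day 90. With 2 of the 6 genes it was 8.30% at day 60, 17.4% at day 90 and 18.9% on chip b. With 4 of the 6 genes it was 2.60%, 7.56% and 10.2%, and the same without COL3A1. Without COL1A1 it was 2.77% and 7.72% at days 60 and 90, and without MGP 2.94% and 8.47%. Thinned to 50000 reads, day 90 gave 7.63%. High-level cells alone gave 5.60% at day 90 and 9.19% on chip b, a boundary of 1000 CPM 6.51% and 10.2%, and one of 10000 CPM 2.60% at day 60, 4.84% and 8.40%. Leaving out a chip, day 200 ran from 1.97% to 13.9%, beside 8.14%.

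Genes called higher, 44, became 24 with an offset of 20 CPM, 119 at 2-fold, 18 at 8-fold and 71 in high-level cells, and ran from 51 to 66 with a chip left out. Genes called lower, 0, became 2 with an offset of 1 CPM, 54 at 2-fold, 15 with 4 of 6 genes and 38 in high-level cells, and ran from 0 to 12 with a chip left out. Genes higher at day 60, 49, became 107 with an offset of 5 CPM, 340 at 2-fold, 75 with 4 of 6 genes and 79 in high-level cells without mitotic ones. Those higher at day 200, 25, became 71, 201, 39 and 52 in the same order. Leaving out a day 200 chip gave 54 and 1113 genes for day 60 and 71 and 465 for day 200, the larger counts without chip b, which rest on the 7 selected cells of chip a. The share of selected neighbours, 50.4%, was 46.4% with 20 neighbours, 47.3% with 30 components and 77% in high-level cells. Of the values for single genes, 565 stayed within the limits set and 59 moved, none with a change of sign. For folds against unselected cells the limit was the standard deviation over the 4 chips. Leaving out 1 chip cannot move a mean fold past that limit. The genes were also those of the rule or chosen by their folds, so these counts cannot show how stable the folds are. The median log2 fold of all ranked genes, -0.48, became -0.37 with median-of-ratios scaling. No paired analysis was possible because no result comes from a test.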
